A study of Ovis aries with 8 samples.

Results

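Line B was compared with line A, the 2 lines of primed sheep embryonic stem cells (ESCs) in the series, with 2 libraries of each line and so 4 of its 8 libraries. Primed ESCs are pluripotent cells that resemble the epiblast at a late stage, shortly before the germ layers form. Both lines were wild type, came from the inner cell mass of blastocysts and were grown without feeder cells to passage 10 at 37 °C and 5% CO2. Their shared medium, named NBFR, was a DMEM/F-12 and Neurobasal base with N2 and B27, 1% BSA, 20 ng/mL Activin A, 20 ng/mL bFGF and 3 µM endo-IWR-1, a tankyrase inhibitor that lowers β-catenin. The other 4 libraries were naive-like cells at passage 12, converted from primed cells whose line is not given, of which 2 were grown feeder-free and 2 on mouse embryonic fibroblasts (MEFs). Their medium, on the same DMEM/F-12 and Neurobasal base, held human LIF at 20 ng/mL, Activin A at 20 ng/mL, ascorbic acid at 50 µg/mL and the inhibitors PD0325901 at 1 µM, XAV-939 at 2 µM, Go6983 at 2 µM and CGP77675 at 1.2 µM. They are given here only as levels beside the primed values. With a single line on each side, what sets line B apart cannot be told apart from the embryo it came from. The labels give no sex for either line, and they do not say whether the 2 libraries of a line came from separate cultures, so the spread behind each p-value is that between libraries and may be technical.

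Primed pluripotency is held by Activin/Nodal signalling through SMAD2 and SMAD3 and by FGF signalling through ERK, acting on a network around POU5F1, SOX2 and NANOG. ESC lines made from different embryos differ in genotype and can differ in sex chromosomes, in the epigenetic state of imprinted genes and the X chromosome, and in metabolism. Gene groups that bear on each of these are described below.

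Polyadenylated RNA was sequenced to about 20 M paired reads per library per the labels, and the values are TPM, a level corrected for transcript length on a scale that sums to 1000000 in each library. Read counts behind the values were not used here, so the depth of each gene is unknown. In the 4 primed libraries, 13554 to 13664 genes stood at 1 TPM or more. Ribosomal RNA genes took 4.42% and 5.12% of TPM in line B, against 6.26% and 5.89% in line A, and 820 genes were called after rescaling without them. Across the 13862 genes tested, Pearson's r between the log2 values of the 2 libraries was 0.983 in line B and 0.985 in line A, and it was 0.968 to 0.972 between libraries of different lines.

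Genes with 1 TPM or more in at least 2 of the 4 libraries were tested with limma on log2(TPM + 1), and a gene is called where its Benjamini-Hochberg adjusted p was under 0.05. Of 13862 genes tested among 28475 in the table, 863 were called (6.23%), of which 484 were higher (3.49%) and 379 lower (2.73%) in line B. At an unadjusted p under 0.05, limma gave 3432 of the 13862 genes. List counts at that unadjusted threshold, given below, are to be read beside this number. The median log2 change over all genes tested was 0.06, and that of the called genes was 0.72 in absolute size. Calls of at least 2-fold numbered 263 (1.9%), with 119 higher and 144 lower in line B. The split between directions depended on the scaling: median-ratio scaling gave 298 higher and 409 lower genes, and quantile normalization gave 306 higher and 408 lower genes. With either scaling, 42.1% or 42.9% of calls were higher in line B, against 56.1% with TPM as deposited. Without 1 of the libraries in turn, the number called was 364 without line B replicate 1, 324 without line B replicate 2, 314 without line A replicate 1 and 341 without line A replicate 2. Each of these fits has a line with a single library, which is assumed to vary like the others. Below, a call that held, or did not hold, "without any 1 library" did so in all 4 of these fits.

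**Figure D1:**
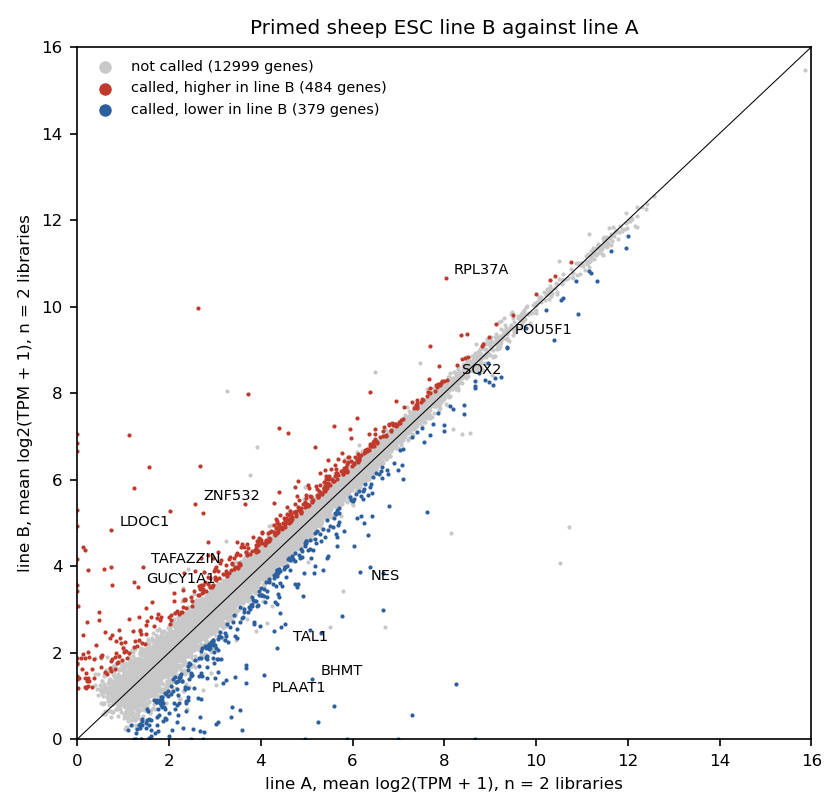
Mean log2(TPM + 1) of the 2 libraries of line B (vertical axis) against that of the 2 libraries of line A (horizontal axis) for the 13862 genes tested, with 484 genes called higher in line B in red, 379 called lower in blue and the diagonal as a black line. LDOC1 and ZNF532 lie far above the diagonal, NES and BHMT far below it, and POU5F1 and SOX2 close to it.

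A group of genes that the RefSeq annotation places on the Y chromosome stood far higher in line B. The Y chromosome is carried by males, and most of its single-copy genes have a related partner on the X chromosome. The table holds 86 genes placed on the Y, of which 52 were at 0 TPM in all 4 primed libraries and 11 were tested. Of these 11, 7 were called higher in line B, 1 was called lower and 3 were not called. Of the 7, 6 were under 1 TPM in both line A libraries and passed the filter only through line B, and the 1 lower gene passed only through line A, so the filter fixed their direction and the count is a description. The 7 higher genes are neighbours among tested genes in the order of the annotation, and all carry identifiers to which no gene name is given here.

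The 7 genes summed to 200.5 and 196.6 TPM in the line B libraries, against 2.30 and 1.72 TPM in the line A libraries. In naive-like cells they summed to 1.81 and 2.64 TPM feeder-free and to 5.43 and 5.76 TPM on MEFs, so 6 libraries of the series lay low and the 2 of line B lay high. LOC132659062 had most of the signal, at 131.2 and 128.5 TPM in line B, against 1.56 and 0.85 TPM in line A, a log2 change of 5.91 ± 0.16 (SE, n = 2 each; limma adjusted p = 9.9e-06). LOC132659055 stood at 21.4 and 19.9 TPM in line B, against 0.12 and 0.07 TPM in line A. LOC132659059 stood at 19.2 and 20.3 TPM in line B, against 0.12 and 0.13 TPM in line A. The libraries of the lines lay far apart in each of these genes, with a log2 change of 4.31 ± 0.13 for LOC132659055 and 4.20 ± 0.13 for LOC132659059. LOC132659061 (14.3 and 13.7 TPM in line B, against 0.11 and 0.22 TPM in line A), LOC132659058 (7.11 and 7.66 against 0 and 0.03 TPM) and LOC132657142 (6.17 and 5.26 against 0.38 and 0.41 TPM) gave the same picture at lower levels. LOC132659056, at 1.16 and 1.36 TPM in line B and 0 and 0.01 TPM in line A, was called with all libraries but not without any 1 of the 4 (adjusted p = 0.0698 to 0.0964), which left 6 higher genes. The gene that went the other way, LOC132659068, was listed at 0 and 0.11 TPM in line B, against 2.65 and 3.37 TPM in line A and 2.51 to 5.14 TPM in naive-like cells. SRY, the testis-determining gene, was below the filter, at 0.39 and 0.05 TPM in line B and 0 in both line A libraries.

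In the list of X-linked genes that have Y-linked partners in mammals, which also holds RLIM, an X-linked regulator of X inactivation, 4 of 12 tested genes were called lower in line B and 0 higher (33.3% called, against 6.23% of all genes tested and 2.73% lower). The other 8, DDX3X, KDM5C, KDM6A, UBA1, OFD1, ZRSR2, TXLNG and RLIM, were not called, with log2 changes between -0.16 and 0.32. EIF1AX, a translation initiation factor, had 279.9 and 296.4 TPM in line B, against 502.8 and 561.1 TPM in line A. The line B libraries lay well below both line A libraries and below the naive-like libraries (606.3 to 620.6 TPM), with a log2 change of -0.88 ± 0.07 (limma adjusted p = 0.0014). EIF2S3, a subunit of the initiation factor that brings the initiator tRNA, had 30.1 and 28.2 TPM in line B, against 45.6 and 47.2 TPM in line A (log2 change -0.65 ± 0.08). USP9X, a deubiquitinase, had 75.3 and 71.9 TPM in line B, against 105.5 and 108.3 TPM in line A (log2 change -0.53 ± 0.06). ZFX, a zinc finger transcription factor, had 8.20 and 9.19 TPM in line B, against 12.2 and 13.8 TPM in line A, and its call ended without any 1 library (adjusted p = 0.106 to 0.193) and with median-ratio scaling (adjusted p = 0.0558) or quantile normalization (adjusted p = 0.0618). DDX3X, an RNA helicase, had 322.9 and 304.2 TPM in line B, against 285.7 and 288.5 TPM in line A, with a log2 change of 0.13 ± 0.06 that did not pass.

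Of 553 X-linked genes tested, 29 were called higher and 31 lower in line B, 10.8% against the 6.23% of all genes tested, and their median log2 change was 0.07. With median-ratio scaling 18 were higher and 30 lower, and with quantile normalization 17 were higher and 30 lower. Without 1 library in turn the X-linked calls numbered 28 to 38. The transcripts that govern X inactivation (XIST, JPX and FTX) were not analysed here. Chromosome 20, which holds the major histocompatibility complex in sheep, had 27 higher and 19 lower genes among 431 tested (10.7%, against 6.23% of all genes tested). Medians of single autosomes lay between 0.00 and 0.12, so no autosome moved as a block by more than a small amount on the log2 scale.

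**Figure D2:**
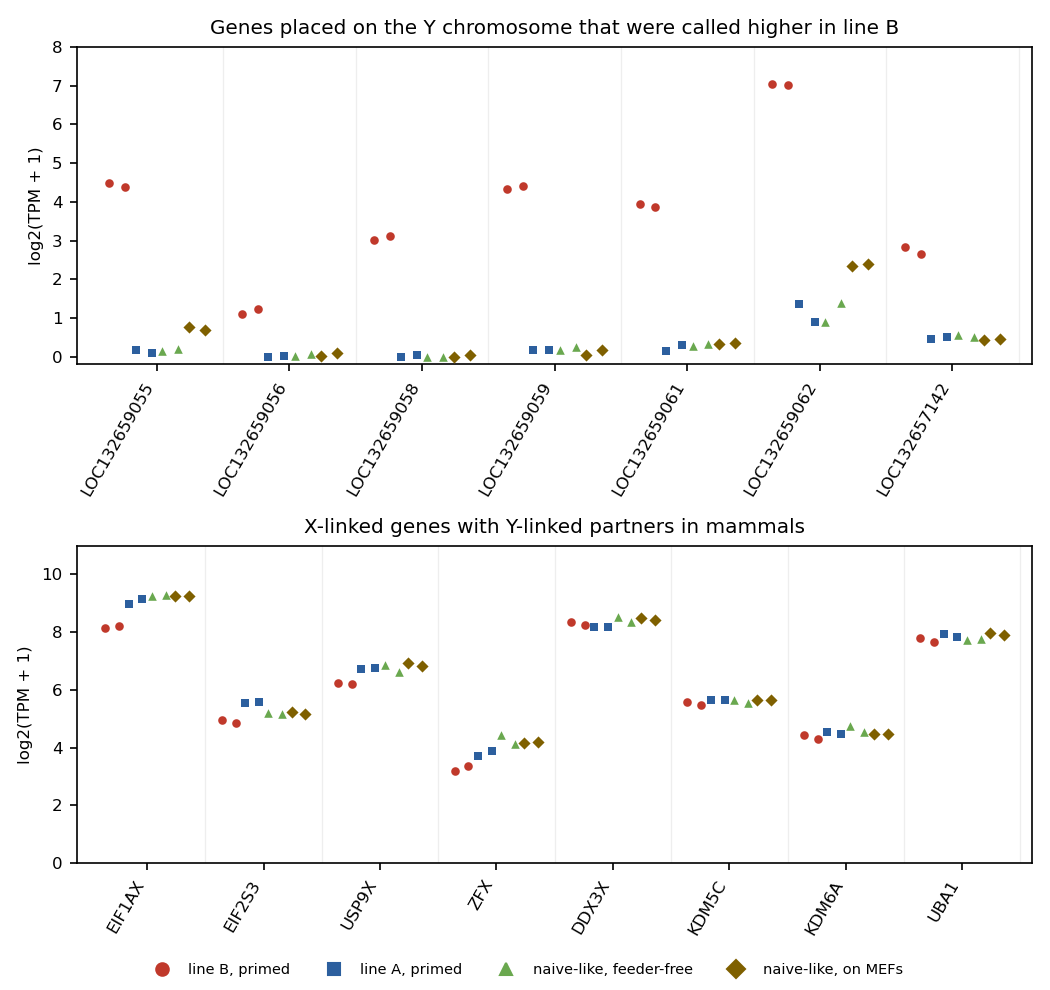
Log2(TPM + 1) in each library (1 point per library, 2 per group) of the 7 genes placed on the Y chromosome that were called higher in line B (top) and of 8 X-linked genes with Y-linked partners in mammals (bottom). In the top panel only the line B libraries stand clear of 0 in most genes, and in the bottom panel EIF1AX, EIF2S3, USP9X and ZFX lie lowest in line B.

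Genes with a symbol are described next by the size of their change. The 12 largest rises and the 12 largest falls among called genes with a mean of at least 5 TPM are described here. Libraries of the lines that did not overlap were a condition of this choice, met by all 863 called genes and by 7740 of all genes tested (55.8%). Each of these 24 genes kept its direction when any 1 library was left out.

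LDOC1, an X-linked gene derived from a retrotransposon's Gag sequence, had 27.9 and 27.2 TPM in line B, against 0.66 and 0.69 TPM in line A. It passed the filter only through line B, so the filter fixed its direction. Its log2 change of 4.09 ± 0.11 (adjusted p = 1.2e-05) was the largest among these rises, and naive-like cells had 0 to 0.68 TPM. ZNF532, a zinc finger protein, had 43.2 and 41.4 TPM in line B, against 5.15 and 4.63 TPM in line A, or 8.65-fold. RPL37A, a protein of the large ribosomal subunit, had 1615 and 1635 TPM in line B, against 273.2 and 247.3 TPM in line A. The naive-like libraries stood at 240.9 to 299.1 TPM for RPL37A, so line B was alone at the higher level. CCT6A, a subunit of the chaperonin that folds actin and tubulin, showed the same arrangement, with 262.6 and 253.4 TPM in line B, 81.3 and 83.3 TPM in line A and 99.5 to 106.8 TPM in naive-like cells. Ribosomal protein genes and CCT6A have processed copies in mammalian genomes, and how reads were shared among such copies was not tested.

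TAFAZZIN, the X-linked enzyme that remodels cardiolipin in mitochondria, had 13.9 and 15.6 TPM in line B, against 1.37 and 2.05 TPM in line A. Here line A stood apart, since naive-like cells had 14.4 to 19.6 TPM. GUCY1A1, a subunit of the nitric oxide receptor guanylate cyclase, had 10.5 TPM in both line B libraries, against 1.49 TPM in both of line A (log2 change 2.21 ± 0.12). NEGR1, a neuronal adhesion molecule, had 17.2 TPM in both line B libraries, against 5.26 and 5.71 TPM in line A. GUCY1A1 reached 0.45 TPM and NEGR1 0.48 TPM at most in naive-like libraries, so they were primed genes with a higher level in line B. The other rises were OVAR (log2 change 1.72 ± 0.19), GSDME, a pore-forming gasdermin (1.33 ± 0.08), EFCAB10 (1.33 ± 0.12), EID1, an inhibitor of the acetyltransferase EP300 (1.32 ± 0.08), and ICE2, a subunit of the little elongation complex (1.23 ± 0.11). The call of EFCAB10 ended in the fit with all 4 groups (adjusted p = 0.0753).

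BHMT, which remethylates homocysteine to methionine with betaine, had 1.46 and 1.75 TPM in line B, against 33.1 and 34.3 TPM in line A. That is 21.0-fold higher in line A, with a log2 change of -3.74 ± 0.11 (adjusted p = 1.7e-05), and naive-like cells lay between the lines at 4.99 to 10.6 TPM. NES, the intermediate filament nestin of neural progenitors, had 14.6 and 12.7 TPM in line B, against 74.6 and 66.6 TPM in line A, or 5.17-fold higher in line A. Naive-like cells were again between, at 34.6 to 41.3 TPM. TAL1, a transcription factor of blood formation, had 4.98 and 5.68 TPM in line B, against 22.5 and 21.7 TPM in line A (log2 change -1.87 ± 0.11), while naive-like cells had at most 0.23 TPM. MSN, the X-linked membrane-cytoskeleton linker moesin, had 27.3 and 23.4 TPM in line B, against 84.3 and 76.0 TPM in line A, and 0.47 to 5.93 TPM in naive-like cells. TAL1 and MSN were therefore genes of primed cells that line B held at a lower level.

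ACAA2, a mitochondrial thiolase of fatty acid oxidation, and NUDT16, a nucleotide hydrolase that can remove RNA caps, were lower in line B and highest in naive-like cells. ACAA2 had 1.43 and 2.00 TPM in line B, against 8.47 and 11.2 TPM in line A and 28.9 to 34.1 TPM in naive-like cells. NUDT16 had 5.14 and 4.85 TPM in line B, against 20.3 and 20.9 TPM in line A and 61.8 to 77.1 TPM in naive-like cells. The other falls were PLAAT1, a phospholipase and acyltransferase (log2 change -2.59 ± 0.21), BPIFB3 (-2.03 ± 0.18), MIEN1 (-1.89 ± 0.18), B3GNT7, a glycosyltransferase (-1.79 ± 0.18), NEBL, the actin-binding nebulette (-1.50 ± 0.12), and the X-linked PBDC1 (-1.45 ± 0.15).

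**Figure D3:**
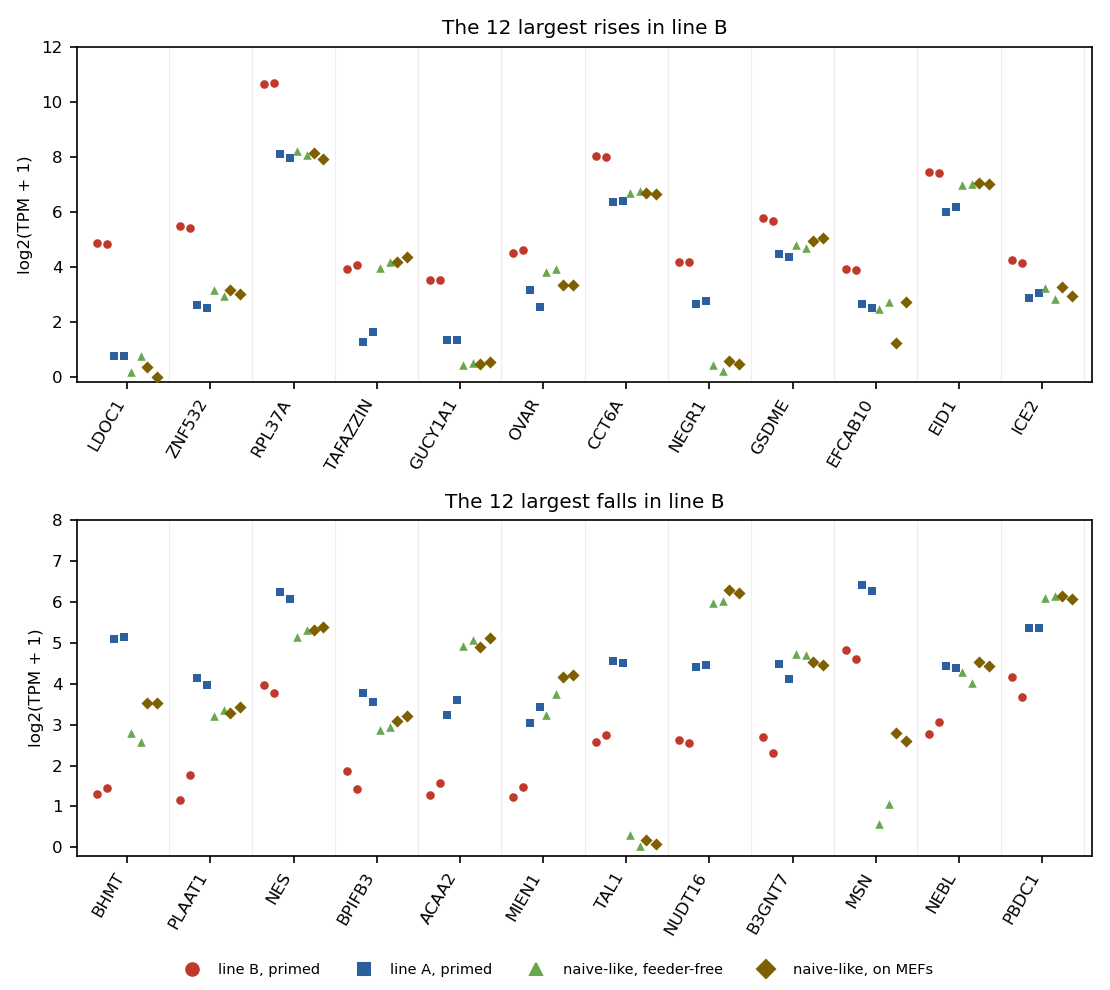
Log2(TPM + 1) in each library (1 point per library, 2 per group) of the 12 largest rises (top) and 12 largest falls (bottom) in line B among called genes with a symbol and a mean of at least 5 TPM. Line B stands alone for LDOC1, ZNF532, RPL37A and CCT6A, whereas line A stands alone for TAFAZZIN, and the naive-like levels lie anywhere from near 0 (TAL1) to above both lines (NUDT16, ACAA2).

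Both lines carried the markers of their label. POU5F1, the central pluripotency factor, had 609.7 and 629.2 TPM in line B, against 650.1 and 662.2 TPM in line A, and its log2 change of -0.08 ± 0.05 did not pass. SOX2, its partner, had 321.8 and 324.0 TPM in line B, against 290.2 and 296.1 TPM in line A (log2 change 0.14 ± 0.05, not called). NANOG had 11.8 and 16.4 TPM in line B, against 11.7 and 9.12 TPM in line A. The lines were not distinguished by the test in any of these 3 genes. The primed markers OTX2 (187.0 and 192.2 TPM in line B, against 198.8 and 194.4 TPM in line A), DNMT3B (112.6 and 99.5 against 94.1 and 96.5 TPM) and CDH2 (185.3 and 178.5 against 164.9 and 161.0 TPM) were not called either.

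Some members of the pluripotency lists did differ. In the core list, 12 members were tested, with 2 higher and 1 lower in line B (25% called, against 6.23% of all genes tested). DPPA2, a chromatin factor of early embryos, had 0.93 and 0.56 TPM in line B, against 3.70 and 3.30 TPM in line A, with a log2 change of -1.37 ± 0.18 (adjusted p = 0.0099). It passed the filter only through line A, so the filter fixed its direction. SALL4, a zinc finger factor of stem cells, had 105.5 and 113.3 TPM in line B, against 85.5 and 84.1 TPM in line A. LIN28B, which blocks maturation of let-7, had 151.2 and 151.9 TPM in line B, against 126.1 and 121.6 TPM in line A. The libraries of the lines did not overlap in these genes, but the changes of SALL4 (0.36 ± 0.07) and LIN28B (0.29 ± 0.06) were small, and both calls ended without any 1 library (adjusted p = 0.0659 to 0.158) and with median-ratio scaling or quantile normalization (adjusted p = 0.0745 to 0.102). DPPA2 was not called without line A replicate 1 (adjusted p = 0.0591).

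Of 25 primed markers tested, 3 were higher and 1, NES, was lower in line B (16% called, against 6.23% of all genes tested). The median log2 change of the list was 0.12, against 0.06 over all genes tested. SFRP2, a secreted WNT modulator, had 328.6 and 313.3 TPM in line B, against 211.0 and 193.8 TPM in line A (log2 change 0.66 ± 0.07, adjusted p = 0.0034). POU3F1, a factor of late epiblast and early neural cells, had 34.2 and 32.2 TPM in line B, against 23.1 and 21.9 TPM in line A (0.54 ± 0.08). SFRP2 was called without any 1 library, whereas POU3F1 lost its call without any 1 of them (adjusted p = 0.0571 to 0.0823). Of 20 naive markers named, 5 were tested and 1, GBX2, was called (20%, against 6.23% of all genes tested). It passed the filter only through line B, so the filter fixed its direction. GBX2, a homeobox factor, had 2.24 and 2.10 TPM in line B, against 0.61 and 0.28 TPM in line A, and was not called without line B replicate 1, line B replicate 2 or line A replicate 2 (adjusted p = 0.0457 to 0.0913 over the 4 fits that leave out 1 library).

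Lists of markers of other cells that the cultures could hold had abundant members beside others near 0. In these bulk libraries, fewer cells of a type and less RNA per cell cannot be told apart. Of the mesendoderm list 3 genes passed the filter and 0 were called, and of the germ cell list 4 passed and 0 were called. At an unadjusted p under 0.05 limma gave 0 genes in the mesendoderm and 2 in the germ cell list, and calls stayed at 0 in each alternative that left out a library or rescaled the values. In the hypoblast list, FST was the 1 call among 12 tested (8.33%, against 6.23% of all genes tested). SOX17, GATA4, GATA6 and HNF4A reached at most 0.39 TPM in any of the 4 libraries. The hypoblast list summed to 1993 and 2081 TPM in line B, against 1880 to 2110 TPM in line A, led by SPARC, APOA1 and APOE. In the trophectoderm list, KRT8 was the 1 call among 6 tested (16.7%, against 6.23% of all genes tested), and CDX2, GATA3 and HAND1 reached at most 0.32 TPM. This list summed to 614.0 and 621.3 TPM in line B, against 767.1 and 799.8 TPM in line A, led by the keratins KRT8, KRT18 and KRT19. The germ cell list summed to 389.0 and 408.6 TPM in line B, against 415.5 and 433.3 TPM in line A, led by NNAT, and the fibroblast and mesenchyme list, with 1 call among 18 tested, to 3140 and 3182 TPM in line B, against 3255 and 3507 TPM in line A, led by VIM and TAGLN. The part of other cells in the results was not tested. In the blood and endothelium list, PTPRC was at 0 in all 4 libraries, TAL1 was the 1 call among 2 tested, and the list of 14 summed to 9.88 and 12.0 TPM in line B, against 29.0 and 30.0 TPM in line A. Most of the difference between these sums came from TAL1 alone, whose levels are given above. HOX genes gave 0 tested members of 38 in the table.

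The neuroectoderm list, with 19 tested members, had 2 higher genes and 1 lower gene in line B (15.8% called, against 6.23% of all genes tested). SOX1, a factor of neural progenitors, had 11.8 and 12.8 TPM in line B, against 7.74 and 7.19 TPM in line A, and NR2F2, an orphan nuclear receptor, had 5.72 and 4.68 TPM in line B, against 1.27 and 2.50 TPM in line A. Both moved opposite to NES, and both lie at modest levels. SOX1 was not called without any 1 library (adjusted p = 0.0697 to 0.108), and NR2F2 was called only where line A replicate 2 was left out (adjusted p = 0.0232 to 0.15 over the 4 fits). NR2F2 also lost its call with median-ratio scaling and quantile normalization (adjusted p = 0.0633 and 0.0607). The lower gene was DLK1, which is described with the imprinted genes. In the fibroblast and mesenchyme list, ACTA2, smooth muscle actin, was the 1 call among 18 tested, at 126.7 and 135.6 TPM in line B, against 91.6 and 86.4 TPM in line A (log2 change 0.55 ± 0.07). The share called in that list was 5.56%, its median was -0.18 and 13 of its 18 changes were below 0. At an unadjusted p under 0.05, limma gave 7 lower genes and 1 higher gene in it, against 3432 of all 13862 genes tested in either direction.

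Glycolysis genes that were called were lower in line B. Glycolysis splits glucose to pyruvate, and primed pluripotent cells in mouse and human are known for a high rate of it. Of 25 genes tested, 10 were called lower and 0 higher in line B, that is 40% of the list called against 6.23% of all genes. At an unadjusted p under 0.05, limma gave 15 lower genes and 1 higher gene, against 3432 of all 13862 genes tested in either direction. In the list, 21 of 25 changes were below 0. The median log2 change was -0.27, against 0.06 over all genes tested, and it kept its sign in every scaling (-0.32 to -0.28) and without any 1 library (-0.31 to -0.25). The list summed to 13776 and 14509 TPM in the line B libraries, against 16845 and 17399 TPM in the line A libraries, which did not overlap. Like the other lists it was chosen with earlier results of these data known, and its counts have no test of their own.

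Along the pathway, lower genes stood at most steps. The glucose transporter SLC2A3 had 1157 and 1174 TPM in line B, against 1574 and 1493 TPM in line A (log2 change -0.40 ± 0.06, adjusted p = 0.014). Hexokinase HK2, which traps glucose as its phosphate, had 45.9 and 45.2 TPM in line B, against 63.6 and 65.1 TPM in line A (-0.49 ± 0.07, adjusted p = 0.011). GPI, the isomerase of the next step, had 313.5 and 309.4 TPM in line B, against 410.7 and 395.6 TPM in line A (-0.37 ± 0.05). In each of the 3 genes both line B libraries lay below both line A libraries, but all 863 called genes and 55.8% of genes tested had no overlap between lines. The aldolases ALDOA (955.5 and 991.5 TPM in line B, against 1207 and 1158 TPM in line A) and ALDOC (24.9 and 30.9 against 47.4 and 39.9 TPM) were lower as well. GAPDH, the first enzyme of the energy-yielding part, had 3035 and 3271 TPM in line B, against 4264 and 3928 TPM in line A. PGK1, X-linked and next in the pathway, had 508.6 and 561.3 TPM in line B, against 666.8 and 651.8 TPM in line A. Enolase ENO1 had 1687 and 1821 TPM in line B, against 2366 and 2301 TPM in line A (-0.41 ± 0.06). ENO2 and PFKFB3, which makes the activator of phosphofructokinase, were also lower (-0.37 ± 0.07 and -0.39 ± 0.08).

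The last steps were not called. LDHA, which reduces pyruvate to lactate, had 706.2 and 874.2 TPM in line B, against 892.4 and 976.6 TPM in line A, and the pyruvate kinase PKM had 1721 and 1736 TPM in line B, against 2021 and 1942 TPM in line A (adjusted p = 0.092). PDK1, which holds pyruvate back from mitochondria, had 34.6 and 39.1 TPM in line B, against 46.8 and 52.8 TPM in line A (adjusted p = 0.053). All changes in the list were less than 2-fold. Without 1 library in turn the lower calls numbered 1 without line B replicate 1, 2 without line B replicate 2, 0 without line A replicate 1 and 1 without line A replicate 2, with adjusted p up to 0.207 for PFKFB3, and 1 was left without the variance trend or without the filter. With median-ratio scaling 8 were left, and with quantile normalization 9. The naive-like libraries lay below both lines for SLC2A3 (126.4 to 196.8 TPM), HK2 (15.1 to 17.8 TPM) and PDK1 (1.95 to 2.94 TPM). The list of respiratory chain genes, which act on the products of glycolysis in mitochondria, gave 0 calls by limma among 28 tested (5 genes at an unadjusted p under 0.05), with a median of 0.03, and 0 calls also without any 1 library and with each scaling. NDUFS6, a complex I subunit outside the list, was called higher and is described with its neighbours on chromosome 16.

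Genes induced by low oxygen through HIF1, which include several glycolytic genes, were also lower in line B where they were called, with 1 exception. Of 21 tested, 6 were lower and 1 was higher (33.3% called, against 6.23% of all genes tested and 2.73% lower). The median log2 change was -0.21, against 0.06 over all genes tested. BNIP3, a receptor for removal of mitochondria, had 205.5 and 214.6 TPM in line B, against 350.1 and 334.6 TPM in line A (-0.70 ± 0.06, adjusted p = 0.0016). VEGFA, the growth factor of blood vessels, had 11.6 and 9.79 TPM in line B, against 18.5 and 23.5 TPM in line A (-0.91 ± 0.14). ADM, the peptide adrenomedullin, had 1.47 and 1.59 TPM in line B, against 3.63 and 4.14 TPM in line A (-0.95 ± 0.15). ANKRD37 (9.81 and 8.41 TPM in line B, against 14.5 and 15.8 TPM in line A), P4HA2, a collagen prolyl hydroxylase (23.7 and 25.5 against 46.8 and 36.7 TPM), and DDIT4, an inhibitor of mTORC1 (354.9 and 346.2 against 432.4 and 425.2 TPM), completed the lower genes. INSIG2, a brake on sterol synthesis, was the exception, at 5.83 and 6.23 TPM in line B, against 2.93 and 3.05 TPM in line A. BNIP3 was called without any 1 library. Of the others, ADM, DDIT4 and INSIG2 lost their calls without any 1, VEGFA without line B replicate 2 or line A replicate 2, ANKRD37 without line B replicate 2 or either line A library, and P4HA2 without either line B library or line A replicate 1, with adjusted p up to 0.147, and 1 to 3 lower genes were then left. Oxygen in the cultures is not given in the labels, and its part in the result was not tested.

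**Figure D4:**
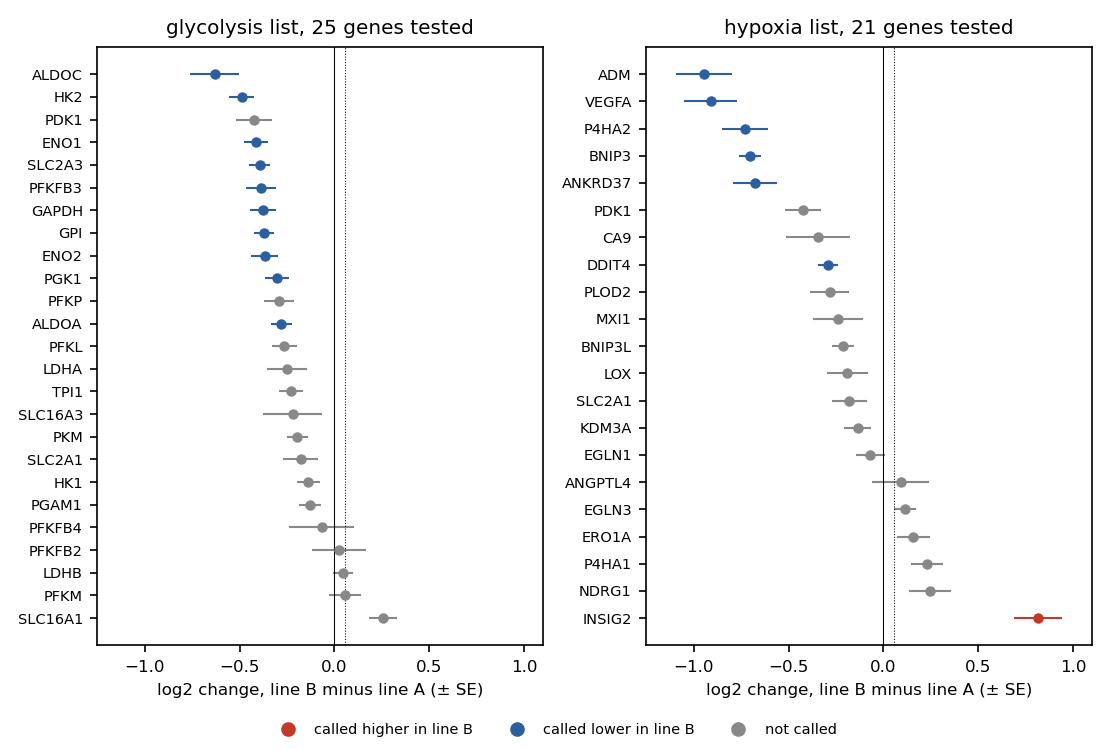
Log2 change from limma, line B minus line A, with its standard error (horizontal axis) for the tested members of the glycolysis list (left, 25 genes) and the hypoxia list (right, 21 genes), called genes in colour. The solid line marks 0 and the dotted line the median of all genes tested, and 21 of 25 glycolysis genes lie left of 0.

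Activin A in the medium acts through the Nodal and Activin receptors, and of 14 pathway genes tested 2 were higher in line B (14.3% called, against 6.23% of all genes tested), 13 had a change above 0 and the median log2 change was 0.27, against 0.06 over all genes. FST, the secreted inhibitor follistatin, had 291.8 and 291.5 TPM in line B, against 236.0 and 213.6 TPM in line A (log2 change 0.38 ± 0.07). The other called gene of this list is not given by name here. Without 1 library in turn, 0 to 1 genes of the list were called, and 1 to 2 across scalings. FST was called only where line A replicate 1 was left out (adjusted p up to 0.109 over the 4 fits). The median stayed between 0.18 and 0.33 without any 1 library and between 0.22 and 0.26 across scalings.

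In the WNT list, which endo-IWR-1 addresses, 3 of 20 tested genes were higher and 0 lower in line B (15% called, against 6.23% of all genes tested). Besides SFRP2 these were SFRP1, a related secreted modulator, at 451.7 and 441.6 TPM in line B, against 347.5 and 345.9 TPM in line A, and LGR4, a receptor for R-spondins, at 55.9 and 54.5 TPM in line B, against 42.3 and 38.4 TPM in line A. Neither call held without any 1 library (adjusted p = 0.0581 to 0.109). In the FGF and ERK list, DUSP4, a phosphatase of ERK, was the 1 call among 27 tested (3.7%, log2 change 0.44 ± 0.07), and it was not called without any 1 library (adjusted p = 0.0679 to 0.0987). In the Notch list 2 of 17 tested genes (11.8%, against 6.23% of all genes tested) were lower, namely HEYL and DLK1. HEYL, a target of the pathway, had 4.79 and 5.34 TPM in line B, against 9.39 and 8.64 TPM in line A. The call of HEYL ended without any 1 library (adjusted p = 0.0633 to 0.126). The BMP list gave 0 calls by limma among 15 tested, with 3 genes at an unadjusted p under 0.05, against 3432 of all 13862 genes tested.

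Imprinted genes are expressed from the copy of 1 parent, and their dosage can shift in cultured stem cells. Of 33 tested, 2 were higher and 2 lower in line B (12.1% called, against 6.23% of all genes tested). PEG3, a paternally expressed zinc finger gene, had 8.03 and 8.04 TPM in line B, against 16.1 and 16.0 TPM in line A (log2 change -0.91 ± 0.10, adjusted p = 0.0042). NDN, a paternally expressed gene of the Prader-Willi region in human, had 59.7 and 54.8 TPM in line B, against 32.9 and 30.6 TPM in line A (0.83 ± 0.08, adjusted p = 0.0031). The 2 libraries of each line nearly coincided for PEG3, and NDN went the other way. SNURF, SNRPN and UBE3A, of the same region in human, changed by 0.21 ± 0.05, 0.21 ± 0.06 and 0.26 ± 0.07 and were not called. DLK1, a paternally expressed Notch-related protein known for its part in the callipyge muscle trait of sheep, had 106.0 and 101.5 TPM in line B, against 145.2 and 129.5 TPM in line A (-0.40 ± 0.07). PON2, a lactonase, had 39.1 and 49.0 TPM in line B, against 30.8 and 29.3 TPM in line A (0.53 ± 0.11). PEG3 and NDN were called without any 1 library, whereas DLK1 was called only without line A replicate 2 and PON2 only without line B replicate 1 (adjusted p up to 0.147 and 0.153), and PON2 also lost its call under each of the 4 scalings (adjusted p = 0.0565 to 0.105). IGF2, a fetal growth factor, had 6.51 and 5.68 TPM in line B, against 8.47 and 9.62 TPM in line A, SGCE had 12.5 and 9.20 TPM in line B, against 7.45 and 5.62 TPM in line A, and neither passed (adjusted p = 0.072 and 0.092). MEST, at 5.93 and 5.998 TPM in line B, against 6.69 and 6.12 TPM in line A, lay within a small distance of 0 (-0.09 ± 0.12). In naive-like cells NDN and DLK1 were at most 0.53 and 2.29 TPM. The DNA methylation list gave 0 calls by limma among 16 tested, also without any 1 library, with 1 gene at an unadjusted p under 0.05.

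Genes of antigen presentation and the interferon response were called in both directions, 3 higher and 3 lower of 28 tested (21.4%, against 6.23% of all genes tested). IFITM3, a membrane protein that restricts virus entry, had 354.6 and 308.5 TPM in line B, against 639.5 and 571.9 TPM in line A (log2 change -0.87 ± 0.09, adjusted p = 0.0037). Its called neighbours on chromosome 21, LOC114110138 (12.7 and 14.0 TPM in line B, against 114.7 and 86.9 TPM in line A), LOC101105867 (41.5 and 40.8 against 103.2 and 115.7 TPM) and LOC114110140 (302.0 and 329.7 against 498.4 and 450.2 TPM), were lower too, so 4 neighbouring tested genes moved together. These 4 calls held without any 1 library. The immunoproteasome subunits PSMB9 (13.5 and 15.01 TPM in line B, against 19.6 and 24.4 TPM in line A) and PSMB10 (23.3 and 28.7 against 37.9 and 38.2 TPM) were also lower. The higher genes were IFIT3, an interferon-induced protein (6.32 and 5.83 TPM in line B, against 2.10 and 1.06 TPM in line A, 1.48 ± 0.21), IFIT5 (42.3 and 42.8 against 29.2 and 29.3 TPM) and SAMHD1, a dNTP hydrolase (306.0 and 313.3 against 245.7 and 249.3 TPM). IFIT5, SAMHD1 and PSMB9 lost their calls without any 1 library, IFIT3 without either line B library, and PSMB10 without line B replicate 1 or either line A library (adjusted p up to 0.165). Median-ratio scaling ended the calls of PSMB9, PSMB10 and SAMHD1 (adjusted p = 0.0549 to 0.0717), and quantile normalization ended those of PSMB9 and PSMB10.

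In the glutathione and detoxification list, 4 of 24 tested genes were higher and 1 lower in line B (20.8% called, against 6.23% of all genes tested). CAT, catalase, which breaks down hydrogen peroxide, had 71.0 and 77.4 TPM in line B, against 43.5 and 39.5 TPM in line A (log2 change 0.82 ± 0.08, adjusted p = 0.0034), with 31.8 to 38.5 TPM in naive-like cells. GSR, glutathione reductase, had 108.7 and 126.3 TPM in line B, against 88.9 and 87.2 TPM in line A, and SOD2, the mitochondrial superoxide dismutase, had 202.6 and 208.9 TPM in line B, against 164.3 and 171.0 TPM in line A. The changes of GSR (0.41 ± 0.08), SOD2 (0.29 ± 0.06) and MGST1, a microsomal glutathione transferase (0.46 ± 0.10), were small beside that of CAT. GPX7, an oxidative folding peroxidase, was the lower gene (-0.57 ± 0.09). CAT was called without any 1 library. SOD2, GPX7 and MGST1 were not called without any 1, and GSR only without line B replicate 1 (adjusted p up to 0.181), and median-ratio scaling ended the calls of GSR and SOD2 (adjusted p = 0.108 and 0.11), as did quantile normalization, which also ended that of MGST1 (adjusted p = 0.061).

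Heat shock genes gave 3 higher and 0 lower of 20 tested (15% called, against 6.23% of all genes tested). HSPA1A, the inducible chaperone HSP70, had 151.4 and 134.5 TPM in line B, against 92.9 and 85.9 TPM in line A (log2 change 0.67 ± 0.08), and its partner DNAJA1 had 37.9 and 36.9 TPM in line B, against 22.8 and 25.2 TPM in line A (0.62 ± 0.08). HSPA5, the chaperone of the endoplasmic reticulum, had 295.5 and 302.4 TPM in line B, against 251.8 and 233.0 TPM in line A (0.30 ± 0.06). HSPA1A held without any 1 library, DNAJA1 was called only without line A replicate 2, and HSPA5 lost its call without any 1 library (adjusted p up to 0.161) and with median-ratio scaling (adjusted p = 0.09) or quantile normalization (adjusted p = 0.0835). Of 37 cell cycle genes tested, 1 was called (2.7%). This was TYMS, thymidylate synthase, which makes the thymidine nucleotide for DNA, at 222.6 and 225.5 TPM in line B, against 121.1 and 123.3 TPM in line A (0.87 ± 0.06, adjusted p = 5.0e-04), and naive-like cells had 141.3 to 143.8 TPM. The call of TYMS held without any 1 library, while the median of the list, 0.03, stayed near that of all genes.

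In the epithelial list 2 of 24 tested genes were lower in line B, 8.33% against 6.23% called over all genes tested. KRT8, a keratin of simple epithelia and trophectoderm, had 282.6 and 285.8 TPM in line B, against 414.4 and 397.5 TPM in line A (log2 change -0.51 ± 0.05, adjusted p = 0.0047), and 15.2 to 19.6 TPM in naive-like cells. It was called without any 1 library. ST14, a membrane protease, had 1.39 and 0.93 TPM in line B, against 2.93 and 2.99 TPM in line A, and was not called without any 1 library (adjusted p = 0.0582 to 0.144). FASN, fatty acid synthase, was lower (-0.46 ± 0.09), and COL4A5, an X-linked basement membrane collagen (0.50 ± 0.09), YAP1, the effector of the Hippo pathway (0.40 ± 0.08), and PSAT1, of serine synthesis (0.39 ± 0.07), were higher in line B. FASN was the 1 call among 27 tested genes of the cholesterol synthesis list (3.7%). COL4A5 was the 1 call among 24 of collagen and laminin (4.17%), and YAP1 that among 22 of the YAP and TEAD list (4.55%). Each of these shares lay below the 6.23% of all genes tested. The p53 targets PERP (0.33 ± 0.07) and TP53INP1 (0.31 ± 0.07) were the 2 calls among 21 tested (9.52%), and PSAT1 and HSPA5 were those among 30 genes of the amino acid stress response (6.67%), shares near the 6.23% of all genes. None of the calls of FASN, COL4A5, YAP1, PSAT1, PERP and TP53INP1 held in all of the fits that leave out 1 library (adjusted p up to 0.187), and median-ratio scaling and quantile normalization ended those of YAP1, PERP and TP53INP1. The immediate early list gave 0 calls by limma among 20 tested, with 8 genes at an unadjusted p under 0.05, and at most 1 lower call without a library or with another scaling.

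**Figure D5:**
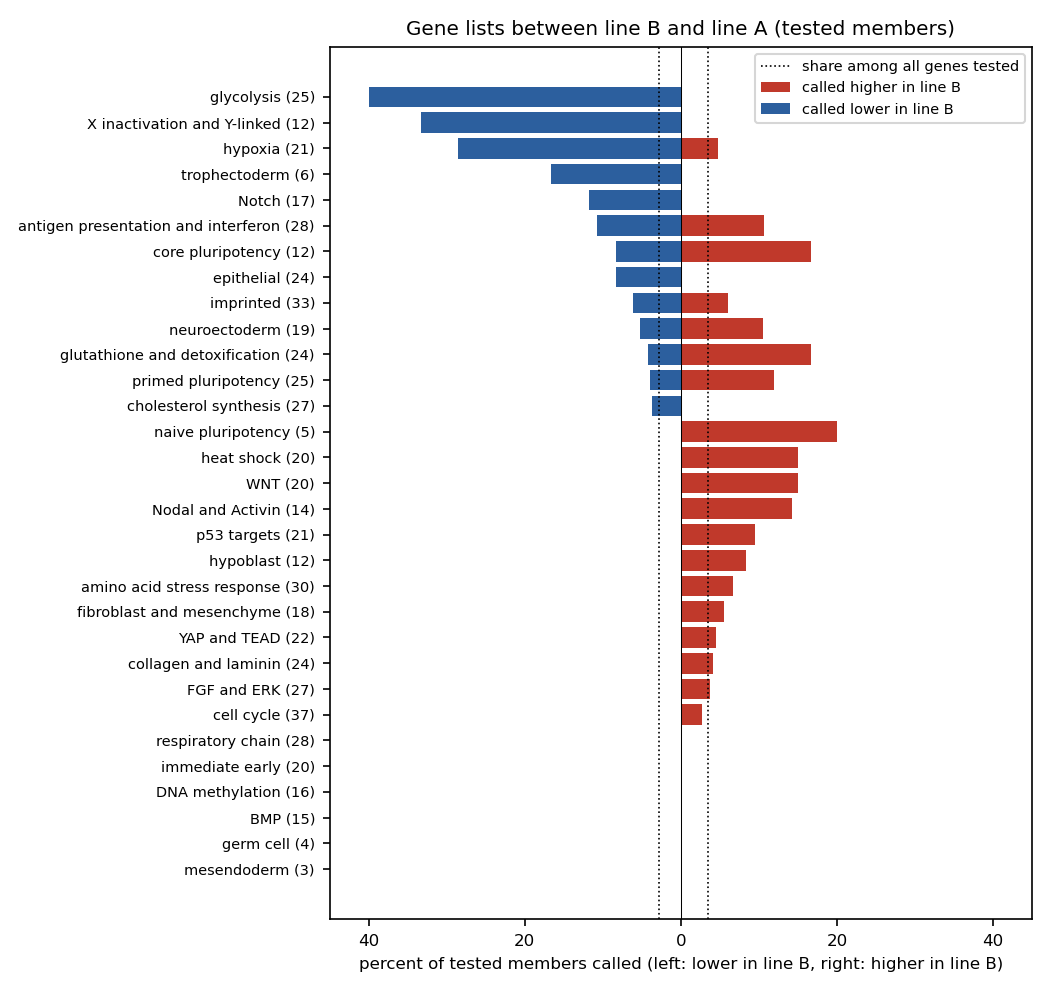
Percent of the tested members of each gene list (number tested in brackets) called higher in line B (red, to the right) and lower in line B (blue, to the left), for lists with at least 3 tested members, with the shares among all genes tested as dotted lines (3.49% higher, 2.73% lower). Glycolysis has the longest bar, 40% lower, and the hypoxia and sex chromosome lists also extend mainly to the lower side.

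Genes known only by an identifier took a growing share of calls as the change became larger. They made up 15.3% of genes tested, 32.4% of called genes, 60.5% of those changed at least 2-fold and 76.8% of those changed at least 4-fold (53 of 69). The genes named in the next sentences were chosen after their values were seen. Genes listed under 0.1 TPM in both libraries of a line and at 5 TPM or more in both of the other numbered 4 with line B low and 9 with line A low, and all 13 carry only identifiers. These 13, and LOC101112291 below, passed the filter only through the line where they were high, so the filter fixed their direction. LOC101114319, on chromosome 21, had 1.69 and 1.16 TPM in line B, against 286.9 and 319.0 TPM in line A and 289.2 to 316.3 TPM in naive-like cells. LOC101112291, an X-linked non-coding transcript, had 0.44 and 0.51 TPM in line B, against 169.2 and 146.1 TPM in line A. For both, line B stood alone at the low level. LOC101109212, on chromosome 19, had 993.1 and 1003 TPM in line B, against 10.2 and 2.40 TPM in line A, and was not called with robust moderation (adjusted p = 0.0799). On chromosome 15, LOC114118623 was at 114.4 and 113.3 TPM in line B and listed at 0 in line A, whereas its neighbour LOC114118624 was listed at 0 in line B and at 262.3 and 635.6 TPM in line A. Both of these neighbours are annotated as small nucleolar RNAs, short genes in which a few reads give a high TPM, and both were listed at 0 in all naive-like libraries. How reads were divided between similar copies was not tested.

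Neighbouring genes with symbols were also called together, and those named next were chosen after their values were seen. On chromosome 14, BLVRB, a biliverdin reductase, had 31.7 and 35.2 TPM in line B, against 64.4 and 70.7 TPM in line A (log2 change -0.99 ± 0.09). Its neighbours SHKBP1 (1.35 and 1.75 TPM in line B, against 4.56 and 3.28 TPM in line A) and LTBP4, which binds latent TGF-β (8.12 and 7.94 TPM in line B, against 19.3 and 18.1 TPM in line A, -1.12 ± 0.10), were lower too. SHKBP1 lost its call without any 1 library (adjusted p = 0.0596 to 0.177), and BLVRB and LTBP4 kept theirs. Another 4 lay on chromosome 16. IRX1, a homeobox factor, had 7.90 and 6.84 TPM in line B, against 4.35 and 3.54 TPM in line A. Its relative IRX2 had 22.7 and 25.8 TPM in line B, against 15.4 and 13.8 TPM in line A. NDUFS6, a subunit of respiratory complex I, had 101.8 and 93.4 TPM in line B, against 55.1 and 52.1 TPM in line A (log2 change 0.85 ± 0.07, adjusted p = 0.0018). With the transcript LOC121816827 between IRX1 and IRX2 (log2 change 0.51, limma adjusted p = 0.0431), these made 4 neighbouring tested genes that were higher in line B. The alternatives for LOC121816827 are not reported here. The call of NDUFS6 held without any 1 library, IRX1 lost its call without any 1 (adjusted p = 0.0706 to 0.135), and IRX2 without line B replicate 2 or line A replicate 2 (adjusted p up to 0.0828). On chromosome 16 as a whole, 12 genes were higher and 1 lower of 210 tested (6.19% called, against 6.23% of all genes).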

How the data were processed

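The authors deposited a table of TPM per gene for 8 libraries. Per the submitters' processing notes the levels come from Salmon. Both its version and the genome build remain not given in the sources used here. TPM sum to 1000000 in each column. By symbol, 28429 of the 28475 genes matched a RefSeq table of the sheep assembly ARS-UI_Ramb_v3.0, and 46 did not match. The RefSeq annotation was used for chromosome, gene type and, through start positions, neighbour order, and no coordinates are given here.

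Values were transformed to log2(TPM + 1), so folds of low genes are understated on that scale. The 13862 genes with 1 TPM or more in at least 2 of the 4 primed libraries entered a linear model in limma 3.58.1 (R 4.3.3) with a variance trend and two-sided p-values adjusted over all genes tested. The ± after a log2 change is limma's standard error. The procedure was tested on simulated data. The 33 gene lists and the genes described were chosen with earlier results of these data known. List counts have no test of their own. The 12 largest rises and falls were named among called genes with a symbol, a mean of at least 5 TPM and no overlap between the lines. Up to 4 list members with the smallest adjusted p were also named, as were members of the pluripotency, imprinted and X- and Y-linked lists. Of these, most called genes are described and the others are given as counts and examples. Some genes that the rule names are not reported here. A further class, genes with a symbol that were under 0.1 TPM in 1 line and at 5 TPM or more in the other, had 0 members. The 2 libraries of a line held different values (0 genes with identical TPM above 0). Same-numbered libraries of the lines deviated together with a correlation of 0.128, over only 2 pairs, and nothing in the labels ties the numbers to a shared day or batch.

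Alternatives changed 1 choice at a time: the pseudocount (0.1 or 5), the filter, the scaling (4 ways), the variance trend, robust moderation, a fit with all 4 groups, the threshold, the replicate number as a block and leaving out each library.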

Additional observations from a re-analysis of the deposited data

How the results depend on the processing

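Of 863 calls between line B and line A, 484 were higher and 379 lower in line B. Fewer genes were called with no filter (224, with 110 higher and 114 lower), with no variance trend (520, with 243 higher), with an adjusted p under 0.01 (233, with 109 higher and 124 lower) and with a change of at least 2-fold (263, with 119 higher and 144 lower). The number of higher genes was 298 with median-ratio scaling, 306 with quantile normalization and 763 with robust moderation, and the number of lower genes was 226 with a mean of at least 5 TPM. Leaving out 1 library gave 314 to 364 calls, 145 to 175 higher and 141 to 204 lower, of which 292 to 309 were also called with all libraries. With the replicate number as a block, 768 genes were called (427 higher and 341 lower), 695 of them shared with the fit without it, and 6 glycolysis genes were called lower in place of 10. The labels do not pair the libraries, so this fit is only a comparison. The other alternatives gave 594 to 1277 calls. Of 108 called genes named here, 49 were called under every alternative in which they were tested, 53 lost their call without at least 1 library and 0 changed sign. The adjusted p under 0.01 and the change of at least 2-fold were not applied gene by gene and lie outside the count of 49. Some of the 49, such as KRT8 and USP9X, changed by less than 2-fold. RLIM, not called, had a log2 change of -0.0146 without line B replicate 1 and 0.151 without line B replicate 2. The cause of these shifts was not tested beyond the smaller number of genes or libraries that some alternatives hold. Small list medians changed sign with scaling, among them those of the cell cycle (-0.03 with 1 scaling, against 0.03) and respiratory chain lists (-0.05, against 0.03). The depth behind TPM is unknown, and 2 libraries per line limit every test.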

Other observations

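The naive-like cells, whose line of origin is not given, were set beside the genes that differed between the primed lines. Over all 13862 genes tested, the mean log2 level of the 4 naive-like libraries lay nearer to line A than to line B in 49.7%. Among the 863 called genes this was so in 491 (56.9%), and among the 263 called genes with a change of at least 2-fold in 167 (63.5%). It was 62% among genes called higher in line B and 50.4% among genes called lower in line B. The 7 genes placed on the Y chromosome that were high in line B were low in the naive-like libraries, with a summed level of 1.81 to 5.76 TPM, and EIF1AX was at 606.3 to 620.6 TPM there, above both line B (279.9 and 296.4 TPM) and line A (502.8 and 561.1 TPM). Naive-like cells differ from both lines in medium, passage and state, and the part of these in the values was not tested.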
